A study of Mus musculus with 2 samples.

Results

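The 9 genes described here belong to the CARD-BCL10-MALT1 signalling module and were followed across the cell types of the mouse heart, without constriction and after pressure overload. They are the scaffolds Card10 and Card14, the scaffold partners Bcl10 and Malt1, the downstream ubiquitin ligase Traf6 and the upstream kinases Syk, Prkca, Prkcb and Prkcd. They were chosen by symbol, and 9 of the 55357 gene rows carried such a symbol, 1 row for each gene. In the cells kept, the 9 genes held 22113 of 25943020 UMIs in the Sham library and 20593 of 26640422 UMIs in the TAC library. UMIs, or unique molecular identifiers, count captured RNA molecules rather than PCR copies.

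Single cells were isolated from hearts of C57BL/6 mice and captured on the 10x Chromium platform, which reads the 3′ ends of transcripts. The TAC library came from male mice whose aortic arch was tied at 8 weeks of age (transverse aortic constriction) and whose hearts were taken after 6 weeks of pressure overload. The Sham library came from mice given the operation without the constriction. The labels state age and sex only for the TAC mice, and the series' design text calls the control mice uninjured. Cells of 3 to 5 hearts were combined in each library, so the hearts of a library cannot be separated and each condition has 1 library (n = 1).

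CARD9, CARD10 and CARD14 are coiled-coil scaffold proteins. Once phosphorylated by protein kinase C enzymes, each assembles the adaptor BCL10 and the protease MALT1 into filaments that recruit TRAF6 and activate NF-κB. CARD9 serves SYK-coupled receptors such as Dectin-1 in myeloid cells, CARD10 (also called CARMA3) serves G protein-coupled and growth factor receptors in non-blood cells, and CARD14 is known from keratinocytes. The study behind the data is concerned with CARD9 in macrophages of hearts infused with isoproterenol, a β-adrenergic agonist, which is a different model from TAC. The question here was which scaffold each heart cell type carried beside Bcl10 and Malt1, and which kinase genes accompanied it.

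After removal of doublets, 9475 Sham and 9452 TAC cells remained, with medians of 1906 and 2080 UMIs per cell. The main types, in Sham and TAC, were 2512 and 2379 cardiomyocytes, 2290 and 2128 fibroblasts, 1904 and 2252 endothelial cells, 1412 and 1328 macrophages, and 1051 and 1043 pericytes. A level, in counts per 1000000 (CPM), is the sum of a gene's UMIs over the cells of a type divided by all UMIs of those cells, and brackets hold its exact Poisson 95% interval. Both libraries shared 32 barcode sequences. With 1 library per condition no test between conditions was possible, and every interval covers counting error only, not the spread between hearts. The macrophages of both libraries included a sub-cluster led by heart muscle genes (Ryr2, Ttn and, in TAC, Myh6), of 811 Sham and 472 TAC cells, and macrophage levels of Bcl10, Traf6 and Prkcd are also given within sub-clusters.

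The scaffold genes are introduced here by sequence, because the results turn on which of them a cell type carried. The study lists quantitative PCR primers for both Card10 and Card14, which show where on the transcripts bulk assays read these scaffolds:
Card10 forward: tcagcacctaccgtttccc
Card10 reverse: cctcatcaaggatcatggagc
Card14 forward: cagccgcatgaaacgtgag
Card14 reverse: tccttctctctgagtgcgttg
In GENCODE M21 (GRCm38) the Card10 pair matched 2 of 3 annotated transcripts, giving a product of 183 bases from coding exon 2 (forward primer, chr15:78802401-78802419, minus strand) to the junction of coding exons 3 and 4. The Card14 pair matched 3 of 4 transcripts, and both primers lay in coding exon 6 (forward primer, chr11:119322759-119322777, plus strand), with a product of 108 bases. These positions lie far from the 3′ end that the droplet libraries read.

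The 250 bases before the transcription start of Card10, which led among the scaffolds in endothelial cells, and of Card9, which led in macrophages, are printed from RefSeq (GRCm38.p6). Capitals mark the letters GGAAGT, a core bound by ETS family factors, and GGGCGG, a core bound by Sp1, on either strand.
Card10, chr15:78803043-78803292, minus strand: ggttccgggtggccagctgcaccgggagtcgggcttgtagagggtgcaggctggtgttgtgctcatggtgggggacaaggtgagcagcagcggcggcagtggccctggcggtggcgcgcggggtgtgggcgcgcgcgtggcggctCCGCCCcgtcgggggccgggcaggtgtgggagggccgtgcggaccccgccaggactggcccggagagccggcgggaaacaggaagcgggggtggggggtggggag
Card9, chr2:26360910-26361159, minus strand: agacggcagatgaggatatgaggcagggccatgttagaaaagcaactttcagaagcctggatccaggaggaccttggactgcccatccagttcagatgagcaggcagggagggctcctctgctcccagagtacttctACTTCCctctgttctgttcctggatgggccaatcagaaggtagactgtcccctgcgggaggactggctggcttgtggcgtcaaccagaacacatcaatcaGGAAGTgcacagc
The Card10 window held 1 GGGCGG match and 0 GGAAGT matches. The Card9 window held 2 GGAAGT matches and 0 GGGCGG matches. Of 32851 windows of the same length, 19.7% held GGAAGT and 32.7% held GGGCGG. RefSeq gave 10 windows for 8 of the genes searched, of which 1 held GGAAGT and 6 held GGGCGG. The motifs were picked after the windows had been seen, and a match is a description of letters, not a binding site.

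Card10 (ENSMUSG00000033170, chr15:78775138-78803042, minus strand) was highest in endothelial cells among the main types. Endothelial cells held 385 Card10 UMIs in Sham and 357 in TAC, which was 50.7% and 56.6% of all Card10 UMIs. Their Card10 level was 159 CPM (143 to 175) in Sham and 110.4 (99.3 to 123) in TAC. All other cells together stood at 15.9 and 11.7 CPM. The endothelial level was thus 9.97-fold (8.62 to 11.5) higher in Sham and 9.44-fold (8.04 to 11.1) higher in TAC. Lymphatic endothelial cells, a separate and smaller set of 85 and 110 cells, had Card10 at 126 (79.7 to 189) and 97.8 (63.3 to 144), and these intervals overlap those of the other endothelial cells.

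Next came fibroblasts, with Card10 at 37.0 CPM (32.1 to 42.5) in Sham and 31.8 (27.1 to 37.0) in TAC. Pericytes stood at 17.2 (11.7 to 24.4) and 10.9 (6.76 to 16.7), and cardiomyocytes at 6.60 (5.30 to 8.12) and 4.37 (3.31 to 5.66). Macrophages were lowest of the main types, with 13 Card10 UMIs in 1412 Sham cells and 3 in 1328 TAC cells, or 5.89 (3.13 to 10.1) and 1.17 (0.240 to 3.41) CPM. The order endothelial cells, fibroblasts, pericytes, cardiomyocytes, macrophages was the same in both libraries. Of the neighbours in that order, cardiomyocytes and macrophages had overlapping intervals in both libraries and the others had not. The pericyte level was not separable from that of cardiomyocytes, fibroblasts and macrophages combined (1.20-fold, 0.8003 to 1.74, in Sham and 1.01-fold, 0.613 to 1.58, in TAC). T and B cells held 0 Card10 UMIs in both libraries, which allows up to 60.3 and 85.3 CPM in Sham and 40.1 and 63.4 in TAC, so a level like that of fibroblasts could not be seen there.

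Droplets also take up free RNA, so the summed markers of endothelial cells were read in the other types as a scale for it. In fibroblasts the 8 endothelial markers stood at 1.10% (Sham) and 1.01% (TAC) of their endothelial level, and Card10 at 23.4% and 28.8%. In pericytes the markers stood at 1.45% and 1.31%, and Card10 at 10.8% and 9.89%. In cardiomyocytes they stood at 0.382% and 0.418%, and Card10 at 4.16% and 3.96%. Card10 in these 3 types was therefore above the share of endothelial markers in both libraries. In macrophages Card10 was above that share in Sham (3.71% against 1.39%) and at it in TAC (1.06% against 1.15%). The part of free RNA in these values was not tested.

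Within the endothelium, the clusters differed in Card10. The largest cluster, led by Btnl9, Ablim3, Mcf2l and Kdr (1300 and 1393 cells), had 178 CPM (157 to 200.5) in Sham and 138 (121 to 157) in TAC. The cluster led by Lhx6, Rasa4 and Vegfc (376 and 452 cells) had 142 (112 to 179) and 82.8 (63.2 to 107). The cluster led by Tmem108, Nrg1, Npr3 and Vwf (193 and 302 cells), which includes markers listed for the endocardium, the inner lining of the heart chambers, had 93.9 (64.2 to 133) and 54.2 (38.0 to 75.1). The cluster led by Sema3g, Gja5 and Sox17 (35 and 105 cells), which includes markers listed for arterial cells, had 174 (79.7 to 331) and 177 (118 to 256) on only 9 and 28 UMIs. Card10 was lower in the Npr3 cluster than in the Btnl9 cluster in both libraries, with intervals apart. In fibroblasts the Lvrn and Col6a6 cluster (41.4 and 33.4 CPM) and the Pi16 and Vcan cluster (30.7 and 30.4) had overlapping intervals.

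**Figure D1:**
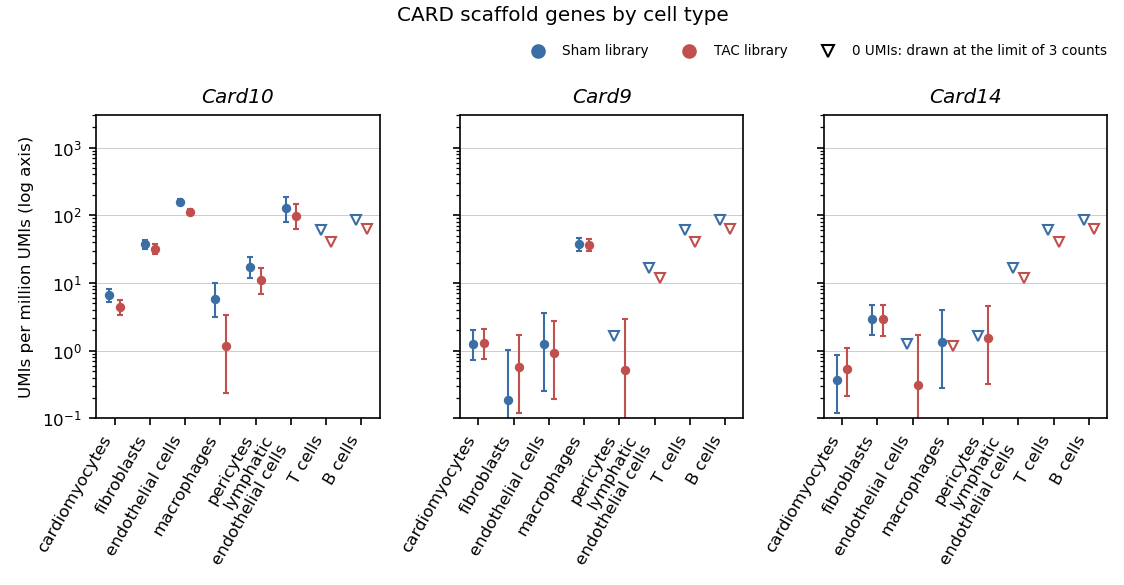
Levels of Card10, Card9 and Card14 in 8 cell types, in CPM of the type on a log axis. Points are the Sham (blue) and TAC (red) library, bars are exact Poisson 95% intervals, and open triangles are types with 0 UMIs, drawn at the limit of 3 counts. Of the 8 types drawn, Card10 is highest in both endothelial types, and Card9 in macrophages, and Card14 stays below 3 CPM where it was seen.

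The other scaffolds were highest elsewhere. Card9 (ENSMUSG00000026928, chr2:26352176-26360918, minus strand), which Gm13562 overlaps on the opposite strand, stood at 37.1 CPM (82 UMIs) in Sham macrophages and 36.1 (93 UMIs) in TAC macrophages, which was 33.9-fold (21.6 to 54.9) and 34.8-fold (22.2 to 56.5) the level of all other cells. Card14 (ENSMUSG00000013483, chr11:119307768-119345375, plus strand) held 24 UMIs in the whole Sham library and 26 in the TAC library, of which fibroblasts held 16 and 15 (2.95 and 2.89 CPM). The fibroblast Card14 level was 7.56-fold (3.05 to 20.4) and 5.64-fold (2.42 to 13.6) that of all other cells. Sgsh overlaps Card14 by 1951 bases on the opposite strand, had 78 and 63 UMIs, and use of strand in the counting is not given in the sources used here, so reads of the pair may not be separable.

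To compare scaffolds within a cell type, levels were divided by the length of the longest annotated transcript, and are given as CPM per kb. Whether counts of 3′ ends rise with transcript length was not tested. In endothelial cells Card10 reached 33.5 (Sham) and 23.4 (TAC), against 0.635 and 0.477 for Card9 and at most 0.0736 for Card14. In fibroblasts Card10 reached 7.84 and 6.73, Card14 0.701 and 0.687, and Card9 0.0946 and 0.297. In cardiomyocytes Card10 reached 1.40 and 0.925, and Card9 0.648 and 0.669. Their intervals were apart in Sham (1.12 to 1.72 against 0.377 to 1.04) and overlapped in TAC (0.7004 to 1.20 against 0.390 to 1.07). Undivided, the TAC intervals were apart, with Card10 at 4.37 CPM (3.31 to 5.66) and Card9 at 1.30 (0.759 to 2.09). In pericytes Card10 reached 3.64 and 2.31, and Card9 at most 0.267. In macrophages the order turned, with Card9 at 19.1 and 18.6, and Card10 at 1.25 and 0.247. Of the 3 genes Card10 had the highest value in endothelial cells and fibroblasts, and Card9 in macrophages, in both libraries and with intervals that did not overlap those of the others, also when divided by gene body length instead. In TAC pericytes the intervals of Card10 (21 UMIs) and Card9 (1 UMI) overlapped on both scales. Per kb of gene body the intervals of these 2 genes overlapped in cardiomyocytes of both libraries.

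Among the main types Bcl10, the adaptor that every scaffold nucleates, was highest in macrophages, and Malt1, the protease of the complex, was spread more evenly. Bcl10 (ENSMUSG00000028191, chr3:145922804-145934356, plus strand) stood in Sham at 83.8 CPM in macrophages, 30.5 in endothelial cells, 24.4 in pericytes, 14.7 in fibroblasts and 9.35 in cardiomyocytes. In TAC it stood at 48.6, 21.3, 13.01, 15.2 and 9.58 in the same order of types. The macrophage level was 5.83-fold (4.85 to 6.99) that of all other cells in Sham and 3.76-fold (3.03 to 4.64) in TAC. Endothelial cells and pericytes had overlapping intervals in both libraries.

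Malt1 (ENSMUSG00000032688, chromosome 18, plus strand) stood in Sham at 77.2 CPM in cardiomyocytes, 75.4 in endothelial cells, 63.8 in macrophages, 39.9 in pericytes and 30.4 in fibroblasts. In TAC it stood at 78.9, 78.0, 73.5, 35.4 and 29.9 in these types. The first 3 types had overlapping intervals in both libraries, and fibroblasts and pericytes lay below them. B cells (341 and 317 CPM, from 12 and 15 UMIs), T cells (281 and 187, from 14 UMIs each) and lymphatic endothelial cells (137 and 113) had higher values, although the TAC interval of the lymphatic cells (76.0 to 163) overlapped those of the first 3 types. Cardiomyocytes held 62.3% and 58.0% of all Malt1 UMIs, and their deep libraries brought a Malt1 UMI to 28.5% and 30.3% of them, against 7.35% and 7.34% after each cell was thinned to 1000 UMIs. The thinned share of endothelial cells was 7.25% and 7.21%, with 814 and 726 shallower endothelial cells left out against 35 and 10 cardiomyocytes.

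Per kb of transcript, cardiomyocytes carried more Malt1 (12.1 in Sham, 12.3 in TAC) than Bcl10 (3.95 and 4.05), while macrophages carried more Bcl10 (35.4 and 20.5) than Malt1 (9.97 and 11.5). In endothelial cells the pair was close on this scale, with Bcl10 at 12.9 and 9.01 and Malt1 at 11.8 and 12.2. Undivided, Sham macrophages held 185 Bcl10 and 141 Malt1 UMIs, but TAC macrophages held 125 and 189. Endothelial cells held 74 and 183 in Sham, and 69 and 252 in TAC. The order in TAC macrophages and the closeness in endothelial cells thus came with the division by length. The longest annotated model of both genes has 1 exon, and with the longest protein-coding transcript the values were 4.80 and 4.92 (Bcl10) and 14.5 and 14.8 (Malt1) in cardiomyocytes, and 43.0 and 24.9 (Bcl10) and 12.0 and 13.8 (Malt1) in macrophages.

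Few cells carried a UMI of a scaffold and of a partner together. Of 343 Sham endothelial cells with a Card10 UMI, 15 also had a Bcl10 UMI (4.37%, against 3.52% of the other endothelial cells) and 43 a Malt1 UMI (12.5% against 7.62%). Of 320 such TAC cells, 13 had Bcl10 (4.06% against 2.80%) and 35 had Malt1 (10.9% against 9.06%). Cells with a Card10 UMI were deeper, with medians of 1230 against 1069 UMIs in Sham and 1460 against 1230 in TAC. In Sham macrophages 12 of 76 cells with a Card9 UMI had Bcl10 (15.8% against 10.6% of the others, at medians of 1674.5 and 1298 UMIs), and 8 of 88 in TAC (9.09% against 8.63%, at medians of 1920 and 1632). For Malt1 it was 6 of the 76 in Sham (7.89% against 7.78%) and 9 of the 88 in TAC (10.2% against 10.97%). These shares are descriptions of shallow counts, and depth moves with each of them.

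**Figure D2:**
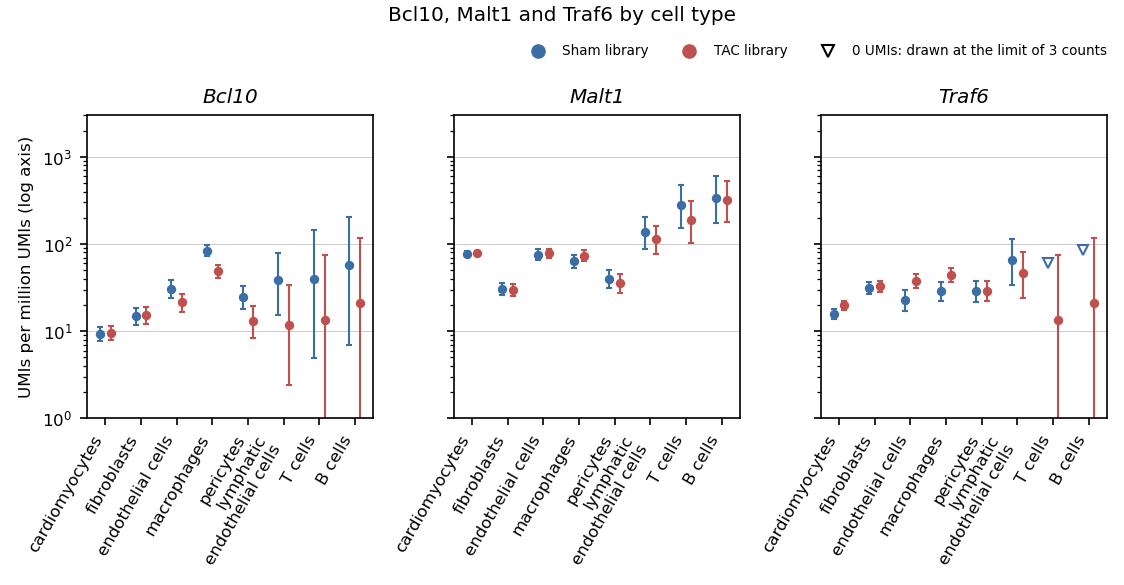
Levels of Bcl10, Malt1 and Traf6 in 8 cell types, in CPM of the type on a log axis, with exact Poisson 95% intervals (Sham blue, TAC red, open triangles for 0 UMIs at the limit of 3 counts). Bcl10 peaks in macrophages and falls there from 83.8 in Sham to 48.6 in TAC, while Malt1 lies between 29.9 and 78.9 in the 5 main types.

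Traf6 (ENSMUSG00000027164, chr2:101678429-101701669, plus strand), the ubiquitin ligase recruited by MALT1, had a narrower range over the main types than Bcl10. In Sham it stood at 31.3 CPM in fibroblasts, 28.9 in pericytes, 28.5 in macrophages, 22.6 in endothelial cells and 15.9 in cardiomyocytes, and in TAC at 32.6, 29.1, 44.3, 37.7 and 19.8 in these types. Cardiomyocytes lay lowest of the 5 in both, at 0.553 (0.464 to 0.656) and 0.560 (0.480 to 0.653) of the level of all other cells. Lymphatic endothelial cells, on 12 UMIs in each library, had 10.6 (5.50 to 18.6) and 7.61 (3.93 to 13.3) CPM per kb of transcript. On that scale the highest main type had 5.08 in Sham (fibroblasts) and 7.18 in TAC (macrophages).

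Of the upstream kinases, Prkcb marked macrophages and lymphocytes most sharply. Among the main types Syk and Prkcd were also highest in macrophages, and Prkca in fibroblasts. Syk (ENSMUSG00000021457, chr13:52583173-52648792, plus strand), the kinase that couples Dectin-type receptors to CARD9, stood at 502 CPM in Sham macrophages and 445 in TAC macrophages. B cells, where SYK is known from B cell receptor signalling, exceeded them (1877 and 1311). Cardiomyocytes came next among the main types, with 130.2 (124 to 136) and 97.4 (92.2 to 103), followed by fibroblasts with 66.0 and 45.3, endothelial cells with 18.1 and 13.3, and pericytes with 7.77 and 4.68. Cardiomyocytes, with 52.0% and 49.0% of all UMIs of the 2 libraries, held 51.8% of all Syk UMIs in Sham and 45.4% in TAC, more than the 32.7% and 40.8% held by macrophages. Thinned to 1000 UMIs, 12.2% and 9.29% of cardiomyocytes had a Syk UMI, against 36.5% and 33.8% of macrophages. Without thinning these shares were 41.8% and 36.2% against 46.4% and 48.2%.

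In cardiomyocytes Syk stood at a larger share of its macrophage level than the macrophage markers did. The 9 macrophage markers (Adgre1, C1qa, Csf1r and others) summed to 0.592% of their macrophage level in Sham cardiomyocytes and 0.652% in TAC cardiomyocytes, and Prkcb stood at 0.232% and 0.240%. Syk stood there at 25.9% and 21.9% of its macrophage level. In fibroblasts the markers stood at 0.952% and 0.992%, and Syk at 13.1% and 10.2%. In pericytes Syk (1.55% and 1.05%) was near the share of the markers (1.11% and 1.33%), and the part of free RNA in it was not tested. Both cardiomyocyte clusters of the Sham library had similar Syk (127 and 134 CPM), as had both of the TAC library (98.0 and 95.4).

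Prkcb (ENSMUSG00000052889, chr7:122288751-122634402, plus strand), a protein kinase C best known from lymphocytes, stood at 1025 and 1085 CPM in macrophages and was 96.5-fold (84.7 to 110.4) and 106-fold (93.2 to 121) above all other cells. Macrophages held 90.0% and 91.9% of its UMIs. B cells reached 2503 and 1564, and T cells 623 and 548. In the other 4 main types Prkcb stood at 2.37 to 9.47 in Sham and at 2.61 to 10.5 in TAC. Relative to its macrophage level, Prkcb was below the share of macrophage markers in each of them. The part of free RNA in these values was not tested. On the same strand, 7 short gene models overlap Prkcb, and those with any UMIs held between 13 and 120 in a library.

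Prkcd (ENSMUSG00000021948, chr14:30595354-30626210, minus strand), the isoform known to phosphorylate CARD9, stood at 424 and 345 CPM in macrophages, 10.4-fold (9.47 to 11.4) and 12.0-fold (10.9 to 13.3) above all other cells. Within macrophages, the sub-cluster with MHC class II or Ccr2 genes (204 and 453 cells) had 591 (505 to 687) in Sham and 489 (442 to 540) in TAC, against 299 (266 to 335) and 241 (213 to 270) in the sub-cluster led by Pdgfc, Fgfr1 and Vsig4 (397 and 403 cells). The sub-cluster led by heart muscle genes had 503 (459 to 550.2) in Sham and 356 (310.4 to 407) in TAC. Smooth muscle cells had 228 and 195 on 36 and 19 UMIs. Fibroblasts had 65.8 and 55.7, endothelial cells 40.8 and 30.6, pericytes 36.1 and 26.0, and cardiomyocytes 25.9 and 13.3.

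Prkca (ENSMUSG00000050965, chr11:107933387-108343928, minus strand), the main calcium-dependent isoform of heart muscle, stood in Sham at 773 CPM in fibroblasts, 396 in pericytes, 372 in cardiomyocytes, 163 in macrophages and 94.7 in endothelial cells. In TAC it stood at 600, 392, 354, 207 and 82.6. Fibroblasts exceeded all other cells 2.42-fold (2.32 to 2.51) in Sham and 1.99-fold (1.91 to 2.08) in TAC, which fell just short of the 2-fold limit used here. The Pi16 and Vcan fibroblasts had 1034 and 803, against 592 and 473 in the Lvrn and Col6a6 fibroblasts. Schwann cells were highest, with 3914 and 4248 from 120 and 116 UMIs in 17 and 15 cells. T cells had 623 and 816. Gm11655, annotated antisense over 12277 bases of Prkca, held 148 and 331 UMIs, against 10751 and 9568 for Prkca.

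**Figure D3:**
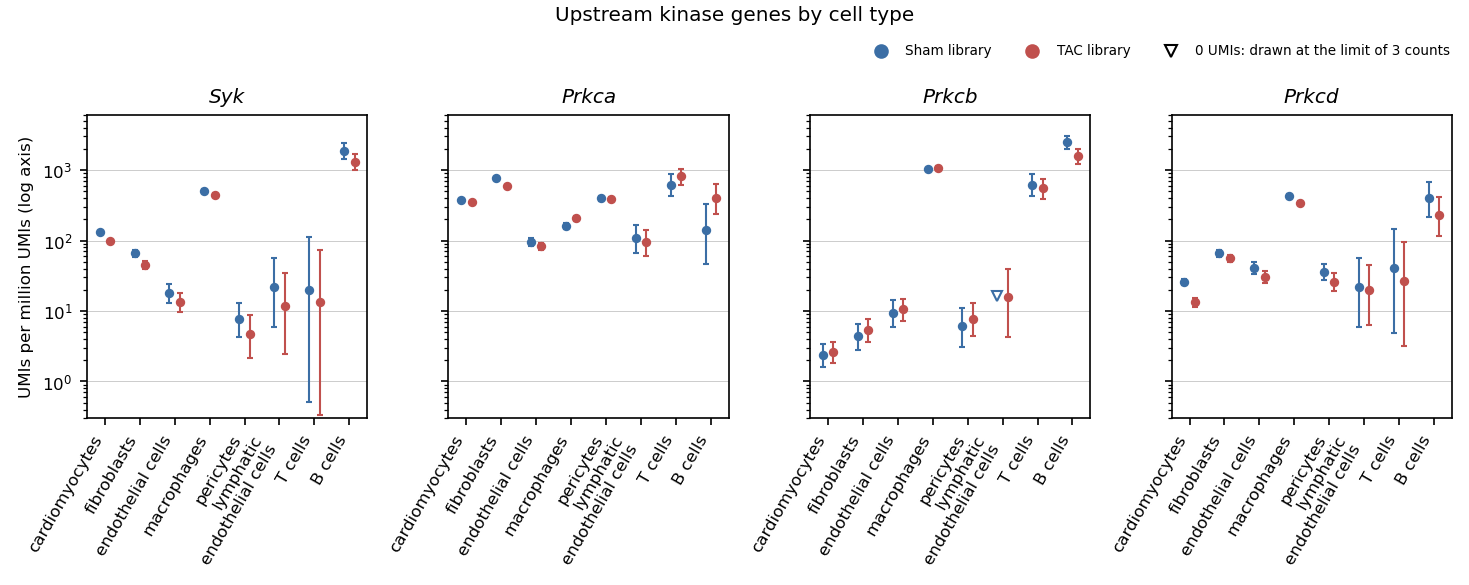
Levels of Syk, Prkca, Prkcb and Prkcd in 8 cell types, in CPM of the type on a log axis, with exact Poisson 95% intervals (Sham blue, TAC red, open triangle for 0 UMIs at the limit of 3 counts). Prkcb separates macrophages and lymphocytes from the rest, and Syk in cardiomyocytes (130.2 and 97.4) lies above fibroblasts and endothelial cells.

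**Figure D4:**
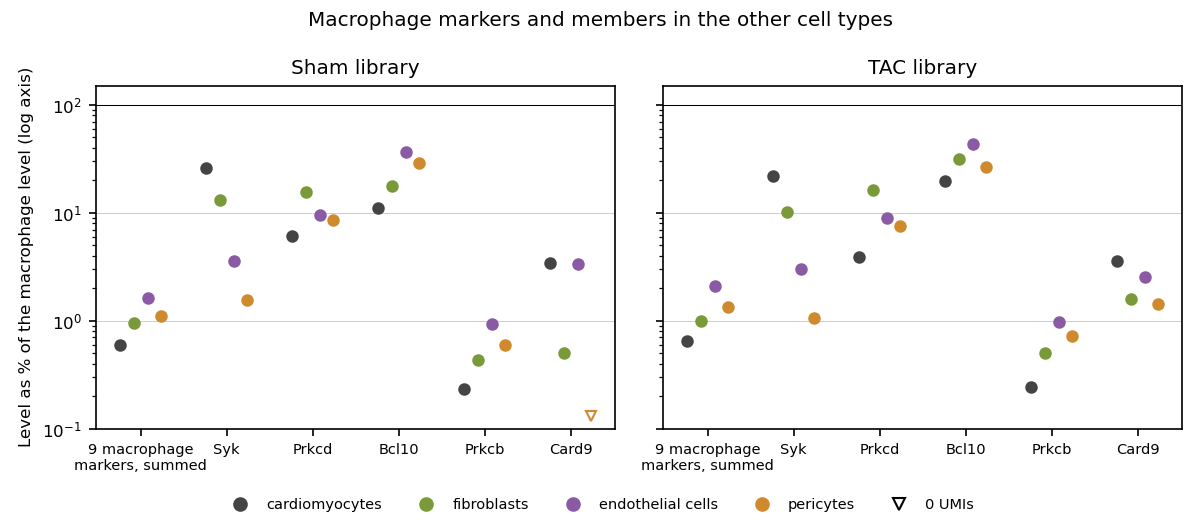
Levels in 4 other cell types as a percentage of the macrophage level of the same library, on a log axis, for the sum of 9 macrophage markers and for Syk, Prkcd, Bcl10, Prkcb and Card9. The open triangle marks 0 UMIs and its height has no scale. Prkcb lies below the markers in each type, whereas cardiomyocyte Syk lies at 25.9% (Sham) and 21.9% (TAC) beside markers at 0.592% and 0.652%.

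Counted over the 9 members, 4 (Bcl10, Syk, Prkcb and Prkcd) were at least 2-fold higher in macrophages than in all other cells, with an interval above 1, in Sham and in TAC, where 18.7% and 18.1% of all genes were. Endothelial cells had 1 such member, Card10, in both libraries, where 13.9% and 14.3% of all genes were. Fibroblasts had 2 in Sham (Card14 and Prkca; 18.4% of all genes) and 1 in TAC (Card14; 17.3%). Cardiomyocytes (14.6% and 14.5% of all genes) and pericytes (10.2% and 9.30%) had 0.

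The receptors and adaptors that act through SYK were mostly higher in macrophages than in all other cells together. Of 11 such genes, 10 had enough UMIs. Of these, 9 were at least 2-fold higher in macrophages than in all other cells in both libraries. Of all genes, 18.7% in Sham and 18.1% in TAC were. Among the 9 were Vav3 (1045 and 1309 CPM), Lyn (944 and 1121) and Plcg2 (170.2 and 224). By the same rule Vav3 was also higher in Sham fibroblasts and Sham endothelial cells, and Lyn in endothelial cells of both libraries. Plcg1, the phospholipase of T cell and growth factor receptors, was the exception, with 23.1 and 15.9 in macrophages and 276 and 202 in endothelial cells. The 7 receptors listed for CARD10 were spread over several types. By the 2-fold rule fibroblasts had 3 of the 7 in both libraries, among them Egfr and Lpar1, beside 18.4% and 17.3% of all genes. Macrophages had 2 in both (Ednrb and Cxcr4), beside 18.7% and 18.1%. Endothelial cells also had 2 in both, among them Ednrb, beside 13.9% and 14.3%. Cardiomyocytes had 2 in both (Agtr1a and Ednra), beside 14.6% and 14.5%. Pericytes had 3 in Sham and 2 in TAC, beside 10.2% and 9.30%. Among the main types Egfr (988 and 960) and Lpar1 (403 and 399), the receptor for lysophosphatidic acid, were highest in fibroblasts. Of these types, pericytes had the highest Ednra, an endothelin receptor gene (449 and 474), and cardiomyocytes the next (258 and 224). Ednrb was at 92.7 and 116 in endothelial cells. Agtr1a, the angiotensin II receptor, was also highest in pericytes among the main types (127 and 109) and next in cardiomyocytes (91.9 and 103).

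Among the other protein kinase C genes, in endothelial cells Prkch stood at 1291 and 1136 CPM, Prkce at 718 and 725 and Prkd1 at 632 and 562. Of the MALT1 substrates, 5 of 9 were at least 2-fold higher in macrophages than in all other cells in both libraries, among them N4bp1 (182 and 159 CPM) and Map3k14 (182 and 192), beside 18.7% and 18.1% of all genes. Fibroblasts had 3 in Sham and 4 in TAC, beside 18.4% and 17.3% of all genes, and endothelial cells 3 and 2, beside 13.9% and 14.3%. Of the 11 ubiquitin and kinase steps below MALT1, 4 in Sham and 5 in TAC were higher in macrophages, beside the same 18.7% and 18.1%. They included Tab2 (272 and 252), Casp8 (213 and 201) and Ikbkb (195 and 181). Endothelial cells had 2 of these 11 in each library. Of the 5 regulators of the scaffold, 0 in Sham and 1 in TAC (Trim62, named after its value was seen) were higher in macrophages. Trim62 was also higher in endothelial cells of both libraries.

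The 5 genes whose levels followed Card10 most closely over 6 cell types in both libraries (12 points) were Foxc1 (r = 0.969), Tspan9 (0.966), Plcg1 (0.962), Klc1 (0.962) and Fam171a1 (0.958). These are Pearson correlations of log2(level + 1), taken as the highest of 15605 genes, and the points of a library share its depth. They are given as a description, without a test.

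Between the libraries, few members moved. A member counted as higher or lower in TAC where its level differed at least 1.5-fold with an exact 95% interval of the ratio that excluded 1, among genes with at least 20 UMIs over both libraries. By this rule 6 pairs of member and main cell type were called. In cardiomyocytes 2 of 8 members with enough UMIs were lower and 0 higher (6.06% of all genes were lower, 11.9% higher and 17.9% either way). In endothelial cells 1 of 8 was higher and 0 lower (8.33% of all genes higher, 4.88% lower, 13.2% either way). In macrophages 1 of 7 was higher and 1 of 7 lower (7.90% and 7.19% of all genes, 15.1% either way). In pericytes 1 of 8 was lower and 0 higher (4.83% and 6.07% of all genes, 10.9% either way). In fibroblasts 0 of 9 were higher or lower (10.1% and 3.67% of all genes, 13.8% either way), and over all cells of the libraries also 0 of 9 (13.2% and 3.89%, 17.0% either way). The median log2 ratio of the members was -0.02 in cardiomyocytes, -0.31 in endothelial cells, 0.08 in macrophages, -0.32 in pericytes and -0.03 in fibroblasts, beside 0.04, 0.05, 0.00, 0.00 and 0.04 over all genes tested. With so few members, these counts lie near what the shares of all genes give.

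Bcl10 was lower in TAC macrophages and pericytes. Macrophages went from 83.8 CPM (185 UMIs) to 48.6 (125 UMIs), a ratio of 0.580 (0.459 to 0.732), and pericytes from 24.4 (44 UMIs) to 13.01 (25 UMIs), a ratio of 0.533 (0.312 to 0.890). The pericyte call was lost with cells typed by their own markers (0.620, 0.363 to 1.04). Each macrophage sub-cluster had the lower value in TAC, with overlapping intervals within each, at 76.9 and 37.4 in the one with MHC class II or Ccr2 genes, 80.9 and 54.8 in the Pdgfc and Vsig4 one and 88.8 and 51.4 in the one led by heart muscle genes. In cardiomyocytes (9.35 and 9.58) and fibroblasts (14.7 and 15.2) the Bcl10 ratios were 1.03 (0.794 to 1.32) and 1.03 (0.747 to 1.43). Endothelial cells lay between, at 0.701 (0.497 to 0.986), short of the 1.5-fold rule. Heart muscle RNA in macrophages moved the same way, with 8 cardiomyocyte markers summing to 3762 and 2292 CPM, 1 of the 8 higher in TAC and none at 0, and its part in the result was not tested. In pericytes the 9 macrophage markers summed to 59.9 and 74.4 CPM, and 6 of the 9 were higher in TAC.

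Traf6 was higher in TAC endothelial cells and macrophages. Endothelial cells went from 22.6 CPM (55 UMIs) to 37.7 (122 UMIs), a ratio of 1.67 (1.20 to 2.33), and macrophages from 28.5 (63 UMIs) to 44.3 (114 UMIs), a ratio of 1.55 (1.13 to 2.15). The macrophage call was lost with no doublets removed (1.49) and with cells typed by their own markers (1.41). Cardiomyocytes had 15.9 and 19.8 (1.25, 1.04 to 1.501), fibroblasts 31.3 and 32.6 (1.04, 0.835 to 1.29) and pericytes 28.9 and 29.1 (1.01, 0.680 to 1.502). Macrophage markers in endothelial cells moved the same way, from 87.3 to 117 CPM in sum with 7 of 9 higher, none of the 9 being at 0, and their part in the result was not tested. In the macrophage sub-clusters Traf6 stood at 28.0 and 44.9 (MHC class II or Ccr2 genes), 21.5 and 36.8 (Pdgfc and Vsig4) and 35.9 and 58.0 (heart muscle genes), with overlapping intervals in each.

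Card10 and Prkcd were lower in TAC cardiomyocytes. Card10 went from 6.60 CPM (89 UMIs) to 4.37 (57 UMIs), a ratio of 0.662 (0.466 to 0.933) that lies close to the 1.5-fold limit and was no longer called with no doublets removed (0.671), at a clustering resolution of 2 (0.680) or without shared barcodes (0.681). Prkcd went from 25.9 (349 UMIs) to 13.3 (174 UMIs), a ratio of 0.515 (0.427 to 0.620). In cardiomyocytes endothelial markers summed to 33.5 CPM in Sham and 39.0 in TAC, macrophage markers to 32.0 and 36.6, and fibroblast markers to 75.7 and 107. The part of free RNA in these 2 results was not tested. In endothelial cells Card10 was at 0.697 (0.601 to 0.807), an interval below 1 that stayed just inside the 1.5-fold rule, and in fibroblasts at 0.858 (0.694 to 1.06). Prkcd was at 0.814 (0.741 to 0.893) in macrophages, 0.846 (0.722 to 0.991) in fibroblasts, 0.751 (0.563 to 1.003) in endothelial cells and 0.721 (0.489 to 1.06) in pericytes.

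Malt1, Syk, Prkca and Prkcb passed the rule in none of the 5 main types. Card14 had enough UMIs for it only in fibroblasts, where the ratio was 0.980 (0.451 to 2.12). Syk was at 0.748 (0.696 to 0.805) in cardiomyocytes, 0.686 (0.580 to 0.811) in fibroblasts and 0.886 (0.815 to 0.963) in macrophages. Prkca was at 0.776 (0.741 to 0.813) in fibroblasts and 1.27 (1.11 to 1.46) in macrophages, with 0.954 (0.916 to 0.993) in cardiomyocytes. Malt1 lay between 0.886 and 1.15 in the 5 types, with every interval holding 1, and the narrowest, in cardiomyocytes, ran from 0.937 to 1.11. Prkcb in macrophages was at 1.06 (1.002 to 1.12). Card9, for comparison, was at 0.974 (0.716 to 1.33) in macrophages, where Card10 had too few UMIs for the rule. Among the rarer types, B cells (36 and 35 cells) held 5 and 19 Prkca UMIs and 88 and 74 Prkcb UMIs, with Prkcb at 0.625 (0.452 to 0.861).

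**Figure D5:**
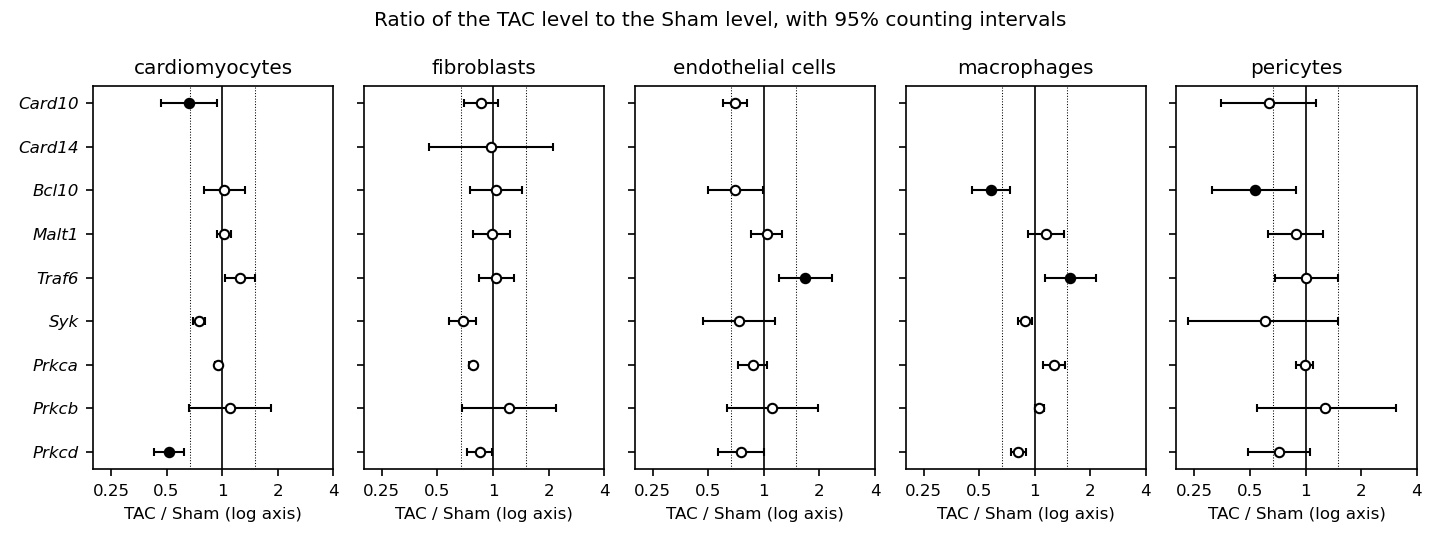
Ratio of the TAC to the Sham level for the 9 members in 5 cell types on a log axis, with exact conditional binomial 95% intervals. Filled points pass the 1.5-fold rule, dotted lines mark 1.5-fold either way, and genes under 20 UMIs over both libraries are not drawn. Filled points are Card10 and Prkcd in cardiomyocytes (0.662 and 0.515), Traf6 in endothelial cells (1.67) and macrophages (1.55), and Bcl10 in macrophages (0.580) and pericytes (0.533).

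Among the other genes of the pathway, the same rule called few in each list. In cardiomyocytes Otud1 went from 2.003 CPM (27 UMIs) to 4.52 (59 UMIs), a ratio of 2.26 (1.41 to 3.71). The study connects this deubiquitinase with CARD9 in macrophages and hearts under isoproterenol, not in TAC cardiomyocytes. Its discussion also cites an earlier finding of the group, that OTUD1 of cardiomyocytes promoted dysfunction, hypertrophy and fibrosis after TAC or angiotensin II. That role was judged in whole-body knockout mice. The other 3 regulators of the scaffold with enough UMIs were not called. In macrophages Otud1 stood at 3.17 and 1.55 CPM, below the count minimum. Also in cardiomyocytes, Prkd2 was higher (1.62) and Btk (0.592) and Egfr (0.649) were lower. Of the 11 genes below MALT1, 0 were called there, beside the 17.9% of all genes. In fibroblasts Zc3h12a, an RNA-degrading MALT1 substrate, was higher (14.7 to 25.4 CPM, ratio 1.73, 1.30 to 2.31), the only gene called there in any list.

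In macrophages the receptors moved in both directions. Clec7a, which encodes Dectin-1, went from 33.1 to 17.1 CPM (0.517, 0.348 to 0.762), Ednrb from 56.6 to 152.4 (2.69, 2.20 to 3.32) and Ednra from 17.7 to 5.83 (0.330, 0.169 to 0.613). The 8 cardiomyocyte markers went from 3762 to 2292 CPM in these macrophages, and their part in the lower Ednra was not tested. Cxcr4 (0.635) and Prkce (0.653) were lower and Ikbkg, the NEMO subunit of the IκB kinase, was higher (1.66, 1.21 to 2.296). In endothelial cells Plcg2 (1.69, 1.24 to 2.33) and Fcer1g (4 and 18 UMIs) were higher beside macrophage markers that went from 87.3 to 117 CPM in sum, whose part was not tested. There Egfr (0.578), Ednra (0.654) and Tab1 (0.581) were lower. In pericytes Ednrb (1.502) and Map3k14 (1.69) were higher, and Lpar1 (0.526), Casp8 (0.636) and Rbck1 (0.666) lower. No list had more than 2 genes called in the same direction in a cell type. Lists this short cannot tell such counts from the shares of all genes given above.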

How the data were processed

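Single cells of mouse hearts were measured in 1 Sham and 1 TAC library. The authors deposited raw UMI counts per gene and barcode made with Cell Ranger 7.1.0, per the labels. The genome build, the counting of introns and the use of strand are not given in the sources used here. Barcodes with fewer than 200 genes were left out, as were 459 and 479 doublets called by Scrublet (4.62% and 4.82%). Each library was clustered by itself (scanpy 1.11.5, 2000 variable genes, 30 components, Leiden resolution 1), leaving out the members and the listed pathway genes, and a cluster was named where at least 3 of a type's markers passed. Libraries held 28146691 and 29108986 UMIs, and the median mitochondrial share was 0.452% and 0.285%. Of the gene IDs, 94.1% were in GENCODE M21, used for positions and lengths.

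Intervals are exact Poisson (levels), Clopper-Pearson (shares) and conditional binomial (ratios) at 95%, from scipy 1.17.1, and cover counting error only. A count of 0 was given a limit of 3 counts. Ratios were computed for all genes and checked on simulated data. The simulated counts held counting error only, and the seeded changes were larger than 1.5-fold. The check therefore does not cover the spread between hearts or changes near that limit. The text names the 9 members, Card9, and from each pathway list the genes called between libraries or highest in a type (at most 3), besides the 5 genes most like Card10. The members and lists were chosen with earlier results of these data known. Some genes of the lists are not reported here.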

Additional observations from a re-analysis of the deposited data

How the results depend on the processing

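No paired analysis was possible because there is a single library of Sham and a single library of TAC. The endothelial to other ratio of Card10 ran from 8.71 to 10.1 in Sham and from 8.30 to 9.50 in TAC over 9 alternatives (500 detected genes, a mitochondrial limit, no doublets removed, other resolutions, joint clustering, typing by a cell's own markers, no mitochondrial UMIs, no shared barcodes). The 6 called pairs of member and cell type became 0 with a 2-fold limit, 5 to 8 under the others. Card10 in cardiomyocytes was not called with no doublets removed, at resolution 2 or without shared barcodes (0.644 to 0.681 over all alternatives). Traf6 in macrophages was not called with no doublets removed or with typing by own markers (1.41 to 1.58), nor Bcl10 in pericytes with typing by own markers (0.530 to 0.620). Bcl10 in macrophages, Prkcd in cardiomyocytes and Traf6 in endothelial cells were called under each of the 9. With no doublets removed, 8 pairs were called, 4 of them among the 6, and with own markers 5, of which 4. Of 378 ratios 0 reversed, 1 moved, 5 gained and 6 lost a call, and 18 of 990 levels moved beyond their interval. With the longest protein-coding transcript, an alternative chosen after seeing the data, 14 of 110 levels per kb moved. Of 330 shares of cells, 216 moved with the depth used. The causes were not tested. Depth limits what can be said of Card14 (24 and 26 UMIs in all) and of Card10 in macrophages (13 and 3 UMIs).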

Other observations

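Gm11655, annotated antisense to Prkca, held 97 UMIs in Sham and 177 in TAC cardiomyocytes, and 35 and 110 in fibroblasts, where Prkca itself was at 0.776 (0.741 to 0.813) in TAC. In 20 Sham and 27 TAC epicardial or mesothelial cells Card10 held 8 and 3 UMIs and Prkcd 3 and 17 UMIs. The Sham Card10 level there was 201 CPM (87.0 to 397), above the 159 (143 to 175) of endothelial cells with overlapping intervals. In TAC the Card10 level of these cells was below that of endothelial cells. The 50 Sham cells that could not be named held 41 Prkcd and 39 Prkcb UMIs, and the 16 unnamed TAC cells held 0 of each. The 20 TAC dendritic cells held 26 Prkcd, 24 Syk and 1 Card9 UMIs.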
